A study of Mus musculus with 51 samples.

Results

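FoxA1, FoxA2 and FoxA3 are forkhead transcription factors of the liver. They bind DNA that is wrapped in nucleosomes, and in development they help open the regulatory regions of hepatocyte genes. The 3 proteins recognise the same DNA letters and can share target genes, so a mouse that lacks 1 or 2 of them still has a related protein in its hepatocytes. Hepatocytes make most plasma proteins, clotting factors and bile acids, and they take up and convert drugs, hormones and nutrients.

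Mouse hepatocytes that had lost FoxA1 and FoxA2 in addition to FoxA3, labelled FoxA triple null, were compared here with hepatocytes that lacked FoxA3 alone, labelled FoxA3 null. Each group had 4 RNA-seq libraries, out of 51 samples in the series. Both groups were FoxA3-/- and carried Foxa1 and Foxa2 flanked by lox sites. At 8 weeks of age the triple null mice received adeno-associated virus AAV8 with Cre recombinase behind the promoter of thyroid-binding globulin (Tbg). This promoter is active in hepatocytes, and whether other liver cells kept both genes was not measured. The controls received AAV with GFP, and they lack FoxA3 too. The time between virus and RNA, the sex and the strain are not given in the labels. The labels do not say that the 4 libraries of a group came from separate mice, so p-values here measure the spread between these libraries. A gene was included if it reached 1 RPKM (read density normalised to transcript length and library size, as deposited) in at least 3 of these 8 libraries. This rule kept 10868 of 33773 gene symbols and chose none of them for a difference. Differences are triple null minus FoxA3 null on the log2(RPKM + 1) scale, and were tested with limma. Genes were called when the adjusted p was under 0.05 and the difference at least 1 in either direction. Values are RPKM, given in the order of libraries 1 to 4.

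The targeted genes followed the labels. Foxa2 was 11.8, 11.1, 20.6 and 11.5 RPKM in FoxA3 null, against 0.243, 0.428, 0.323 and 0.470 in the triple null, a difference of -3.39 (SE 0.19, adjusted p 2.3e-06). The triple null mean was 2.67% of the FoxA3 null mean. Foxa1 was 9.79, 6.14, 10.1 and 7.90 RPKM in FoxA3 null, against 3.39, 3.63, 3.04 and 3.06 in the triple null, a difference of -1.13 (SE 0.16, adjusted p 0.0008). Its triple null libraries held 35.8% to 42.7% of the FoxA3 null mean, so more Foxa1 than Foxa2 signal remained. With 5 added in place of 1 before the log, Foxa1 was at -0.69 and not called. One RPKM value per gene cannot separate a transcript that lacks the deleted exons from a complete one. Foxa3 was at most 0.0114 RPKM in all 8 libraries. The genes of the other forkhead factors in the list of liver regulators (Foxo1, Foxo3, Foxp1, Foxq1, Foxk1, Foxk2, Foxj3 and Foxn3) were not called, at differences of -0.33 to 0.70.

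The hepatocyte label was checked against markers. Alb was among the most abundant mRNAs of both groups, at 28111 ± 4827 RPKM (mean ± SD, n = 4) in FoxA3 null, against 12268 ± 2345 in the triple null. Of the other hepatocyte markers chosen, Ttr, Apoa1, Serpina1c and Cps1 were called lower in the triple null, as was Alb. Apob and Hnf4a were not called, and the differences of all are given below. Markers that change with the genotype cannot by themselves check the label of the triple null. The libraries were alike in relative depth (1 to 1.206 times the shallowest) and in genes at or above 1 RPKM (10369 to 10620). They differed in the share of summed RPKM from 10 transcripts of the mitochondrial genome, at 18.8%, 13.5%, 8.03% and 13.9% in the triple null and 6.81%, 8.10%, 10.3% and 8.24% in FoxA3 null. All 9 of these transcripts tested were above 0, at a median difference of 0.78, and 1 was called (mt-Nd1, 1.15), which was at 0.98 to 1.07 and not called without FoxA3 null library 1 or triple null library 1 or 4, and at 0.56 and not called after quantile normalization. The nuclear RNA Malat1, looked at after its values were seen, was 142, 249.5, 454 and 295 RPKM in FoxA3 null, against 2498, 1304, 555 and 1044 in the triple null. Triple null library 3 and FoxA3 null library 1 were the lowest of their groups in mitochondrial share, and a list's counts without this pair are given below where they differ by more than 1.5 times. Whether RNA quality or cell handling had a part in any result was not tested.

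Of the 10868 genes, 931 were called (8.57%), 477 of them higher (4.39%) and 454 lower (4.18%) in the triple null. The 2 groups did not overlap for 3112 genes (28.6%), and for 871 of the 931 called genes. Over all genes the median difference was 0.05; RPKM is already scaled to library size, so this does not bear on a shift in total RNA. Most calls were moderate, with 671 between 1 and 2 in size, but 33 genes fell by at least 4 and 16 rose by at least 4. Of the genes tested, 686 reached 1 RPKM in fewer than 3 FoxA3 null libraries and so needed the triple null libraries to be included, 125 of them called higher and 0 lower by limma, a direction that the filter largely sets. The same holds in reverse for 663 genes, of which 105 were called lower and 0 higher. In the decile of genes with the highest FoxA3 null level, 144 of 1087 were called lower (13.2%) and 52 higher (4.78%). In the lowest decile 136 of 1087 were called higher (12.5%) and 3 lower (0.28%). Sorting by the FoxA3 null level, which is part of the difference, itself favours this pattern. The 454 lower genes made up 19.7%, 17.6%, 15.0% and 17.2% of summed RPKM in the FoxA3 null libraries, and 3.91%, 3.60%, 4.84% and 3.64% in the triple null. The 477 higher genes went from 5.74%, 6.45%, 7.73% and 7.14% to 19.7%, 18.4%, 19.4% and 19.5%. These shares describe genes that were chosen by the same difference, and are no test.

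**Figure D1:**
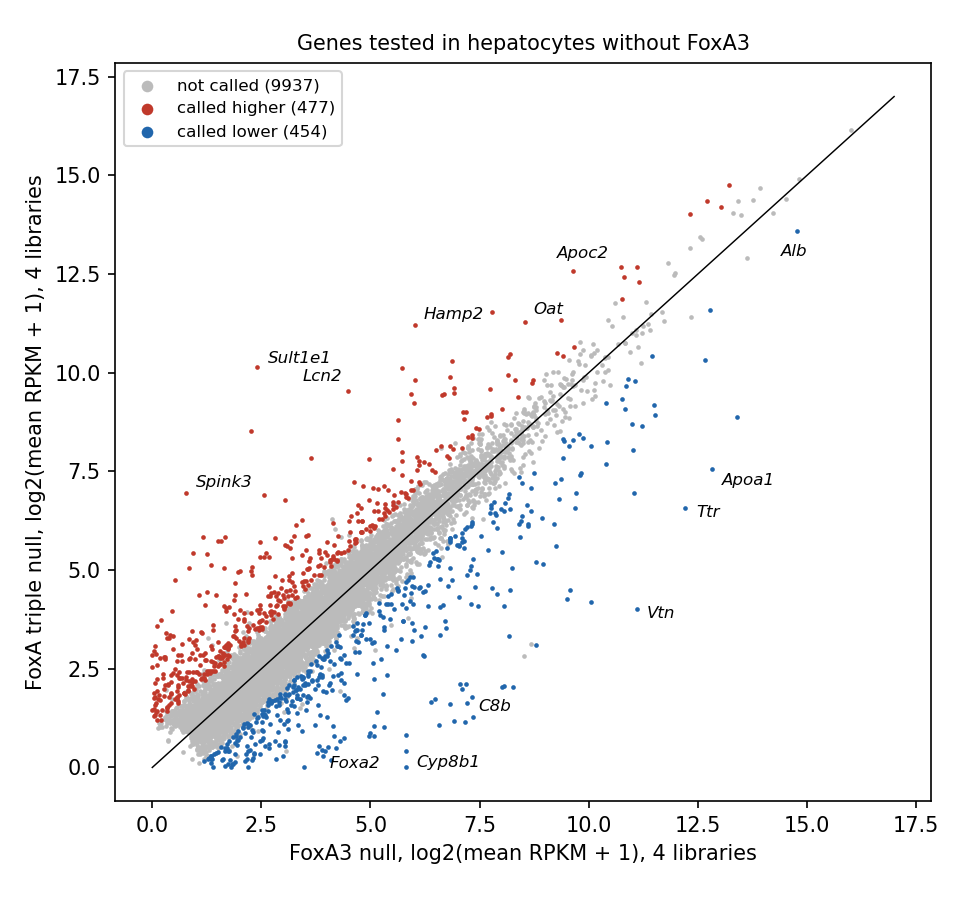
Each point is 1 of 10868 genes, at its mean over the 4 FoxA3 null libraries (horizontal) and over the 4 triple null libraries (vertical), both as log2(mean RPKM + 1). Blue points are the 454 genes called lower, red points the 477 called higher and grey points the rest, and the line marks equal levels. Vtn, Ttr and Apoa1 lie at the lower right, and Sult1e1, at 4.29 RPKM in FoxA3 null, lies far above the line.

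Vtn fell furthest of all. It encodes vitronectin, a plasma glycoprotein that binds integrins, heparin and the membrane attack complex. Its RPKM was 1425, 1965, 2851 and 2526 in FoxA3 null, against 13.2, 13.2, 16.6 and 17.4 in the triple null, a difference of -7.05 (SE 0.21, adjusted p 3.9e-08). Ttr encodes transthyretin, which carries thyroid hormone and retinol-binding protein in blood. It went from 3719, 4693, 5799 and 4858 RPKM to 102, 70.9, 106 and 96.97, a difference of -5.65 (SE 0.18, adjusted p 3.9e-08). Neither gene's groups came near each other, and the highest triple null library of Ttr was at a small part of the lowest FoxA3 null library.

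The other genes of the 15 that fell furthest are taken in turn. Ugt2b1, a glucuronosyltransferase, went from 431, 246, 259 and 301 RPKM to 2.92, 2.66, 3.25 and 3.75. Ces1c, a secreted carboxylesterase of mouse plasma, was the tightest of the set in FoxA3 null, at 1037, 1076, 1062 and 1089 RPKM, and was 17.8, 11.99, 22.6 and 16.2 in the triple null. Pemt, which makes phosphatidylcholine by methylation and so supplies lipid for bile and lipoproteins, went from 360.1, 456, 504 and 459 to 6.99, 7.58, 5.77 and 10.3 RPKM. Cyp8b1, the sterol 12-alpha-hydroxylase that sets the share of cholic acid in bile, was under 1 RPKM in every triple null library, at 0.313, 0.246, 0.276 and 0.548, after 62.9, 49.8, 57.99 and 51.6 in FoxA3 null. Hao1, the glycolate oxidase of peroxisomes, fell by 5.72, Aox3, an aldehyde oxidase, by 5.50, and Cyp2c50, a P450 enzyme, by 5.91. Slco1a1, an uptake transporter for organic anions that male mice express more, fell by 6.04. Hsd3b5, a steroid dehydrogenase of male mouse liver, fell by 6.02, and Mup21, a major urinary protein, by 5.93. C8b, a chain of complement component 8, was 168, 137, 152 and 137 RPKM in FoxA3 null, against 2.24, 2.22, 1.98 and 2.06 in the triple null, the smallest SE of the set (0.11). Mug2, a murinoglobulin that inhibits proteases, fell by 5.42. Ccl9, a chemokine, was the least even, at 44.3, 116, 203 and 177 RPKM against 0.335, 8.82, 0.775 and 1.80; library 2 of the triple null stood above the other 3. Adjusted p of the 15 ranged from 8.6e-09 for C8b to 0.0003 for Ccl9. Cyp8b1 and Ccl9 were included only through FoxA3 null, so the filter largely set their direction.

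FoxA proteins bind a short motif whose core is often written TGTTTAC, with TATTTAC and TGTTTGC as close forms. The 250 bases before each annotated start of a gene were searched for these 3 heptamers on both strands. No 2 of the heptamers can be the same 7 bases. A gene with several starts was counted once, if any of its windows held a match. The number of starts differs between genes and was not taken into account. Start sites came from RefSeq on GRCm38.p6, and 8043 of the 10868 genes matched by symbol or synonym. At least 1 heptamer lay before 693 of the 8043 genes (8.62%), 60 of 332 called lower (18.1%) and 43 of 343 called higher (12.5%). TGTTTAC itself lay before 2.93% of all these genes, 5.72% of the lower and 2.92% of the higher ones. TATTTAC was at 2.00%, 4.52% and 3.79%, and TGTTTGC at 4.18%, 9.94% and 5.83%. A heptamer lay before 7 of 14 matched genes among the 15 that fell furthest, and 2 of 9 among the 15 that rose furthest. A match describes letters, not a bound site, and FoxA proteins also act at distant enhancers that these windows leave out.

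Shown next are windows of genes that fell by at least 4, with heptamers in capitals on either strand. Those of Apoa1, C8b, Cyp8b1 and F11 were picked because they hold matches within 100 bases of the start, and that of Vtn, which fell furthest, because it holds none. The windows of Cyp2c50 and Slco1a1 also hold none, and the matches of Ugt2b1 and Hsd3b5 lie further out, 144 and 153 bases before it. All run 5′ to 3′ in the direction of the gene, from 250 bases before the start to the base before it.
Apoa1, chr9:46228380-46228629, + strand: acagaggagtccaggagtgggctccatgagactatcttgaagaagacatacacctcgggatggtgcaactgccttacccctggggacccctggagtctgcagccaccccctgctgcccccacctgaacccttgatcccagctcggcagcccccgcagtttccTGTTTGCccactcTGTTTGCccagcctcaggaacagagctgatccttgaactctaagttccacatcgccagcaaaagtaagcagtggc
C8b, chr4:104766067-104766316, + strand: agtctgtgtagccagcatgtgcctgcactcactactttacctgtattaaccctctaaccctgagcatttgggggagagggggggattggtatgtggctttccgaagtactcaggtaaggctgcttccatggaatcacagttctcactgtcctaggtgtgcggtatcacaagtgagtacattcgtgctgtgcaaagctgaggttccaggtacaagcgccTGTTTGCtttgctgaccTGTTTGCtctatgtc
Cyp8b1, chr9:121916306-121916555, - strand: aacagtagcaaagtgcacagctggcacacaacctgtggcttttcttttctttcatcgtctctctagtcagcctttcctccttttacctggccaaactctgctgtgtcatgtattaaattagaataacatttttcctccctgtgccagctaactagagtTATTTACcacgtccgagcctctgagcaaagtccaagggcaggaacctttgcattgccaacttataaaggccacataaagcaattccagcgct
F11, chr8:45262032-45262281, - strand: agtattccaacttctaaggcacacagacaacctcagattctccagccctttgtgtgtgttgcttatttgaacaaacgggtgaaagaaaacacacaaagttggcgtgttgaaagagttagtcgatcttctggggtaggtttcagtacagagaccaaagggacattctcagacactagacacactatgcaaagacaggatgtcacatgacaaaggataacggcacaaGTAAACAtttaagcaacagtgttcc
Vtn, chr11:78498870-78499119, + strand: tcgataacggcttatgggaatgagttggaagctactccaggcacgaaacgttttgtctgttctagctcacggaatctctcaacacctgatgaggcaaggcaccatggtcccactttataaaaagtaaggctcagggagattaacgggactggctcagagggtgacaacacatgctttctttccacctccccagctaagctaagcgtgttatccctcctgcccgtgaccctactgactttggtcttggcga
In Apoa1, TGTTTGC occurs at 88 and 75 bases before the start, and in C8b at 32 and 15. Cyp8b1 holds TATTTAC at 92, and F11 holds TGTTTAC on the reverse strand at 25. Ambp, which fell by 4.12 and whose window is not shown, holds TGTTTGC on the reverse strand at 16. The window of Sult1e1, the gene that rose furthest, is shown too and, like that of Vtn, holds none of the 3.
Sult1e1, chr5:87591612-87591861, - strand: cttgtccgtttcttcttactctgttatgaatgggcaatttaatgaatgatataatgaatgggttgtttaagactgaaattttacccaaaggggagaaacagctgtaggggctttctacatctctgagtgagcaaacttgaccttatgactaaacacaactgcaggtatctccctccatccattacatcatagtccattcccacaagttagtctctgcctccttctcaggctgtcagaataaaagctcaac

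Sult1e1 encodes the sulfotransferase that inactivates estrogens, and is low in adult mouse liver. It was 2.46, 3.49, 6.37 and 4.84 RPKM in FoxA3 null, against 1411, 1007, 1289 and 786 in the triple null, a difference of 7.75 (SE 0.26, adjusted p 5.9e-08). Spink3, a trypsin inhibitor best known from the pancreas and also found in embryonic and regenerating liver, went from 0.650, 0.473, 1.07 and 0.602 to 83.4, 188, 117 and 102 RPKM, a difference of 6.13 (SE 0.23, adjusted p 1.4e-07). Both were near the detection minimum or low in every FoxA3 null library and high in every triple null library. Spink3 was included only through its triple null libraries, so the filter largely set its direction.

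Others were among the 15 that rose furthest. Hamp2, the second mouse hepcidin gene, went from 49.5, 73.04, 114 and 20.8 to 3477, 1849, 1889 and 2209 RPKM. Lcn2, lipocalin 2, which binds bacterial iron carriers, went from 8.80, 26.4, 13.5 and 36.9 to 619, 713, 1034 and 601. Orm3, an acid glycoprotein of the acute phase, rose from 12.4, 16.6, 7.40 and 9.26 to 230.5, 214, 218 and 247. Cidec, which enlarges lipid droplets, was 1.92, 1.52, 1.69 and 2.89 RPKM in FoxA3 null, against 47.7, 46.8, 62.3 and 51.2 in the triple null. Scd2, a fatty acid desaturase of brain and fetal liver, was under 1 RPKM in each FoxA3 null library and was 32.5, 16.2, 23.4 and 31.9 in the triple null. Car2, a carbonic anhydrase, rose by 4.17, and Anxa2, a calcium-dependent membrane-binding protein, by 4.20. Cyp17a1, the steroid 17-alpha-hydroxylase, rose by 4.43, Ugt2b37, a glucuronosyltransferase, by 4.68, and Mup18, a major urinary protein, by 4.07. Ly6d and Prtn3 also rose, but unevenly. Ly6d, a surface marker of some blood and epithelial cells, was 22.6, 102, 10.99 and 31.8 RPKM in the triple null, and Prtn3, neutrophil proteinase 3, 21.04, 22.8, 75.01 and 47.2. Gm10680, a predicted gene, rose by 4.44. Adjusted p of the 15 ranged from 3.9e-08 for Car2 to 0.0013 for Mup18. Like Spink3, the genes Scd2, Ly6d and Prtn3 were included only through the triple null, so the filter largely set their direction. Mup, Ugt2b, Orm and Hamp genes have near-identical copies, and how reads were split between copies is not given in the sources used here, so levels of single members are uncertain.

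**Figure D2:**
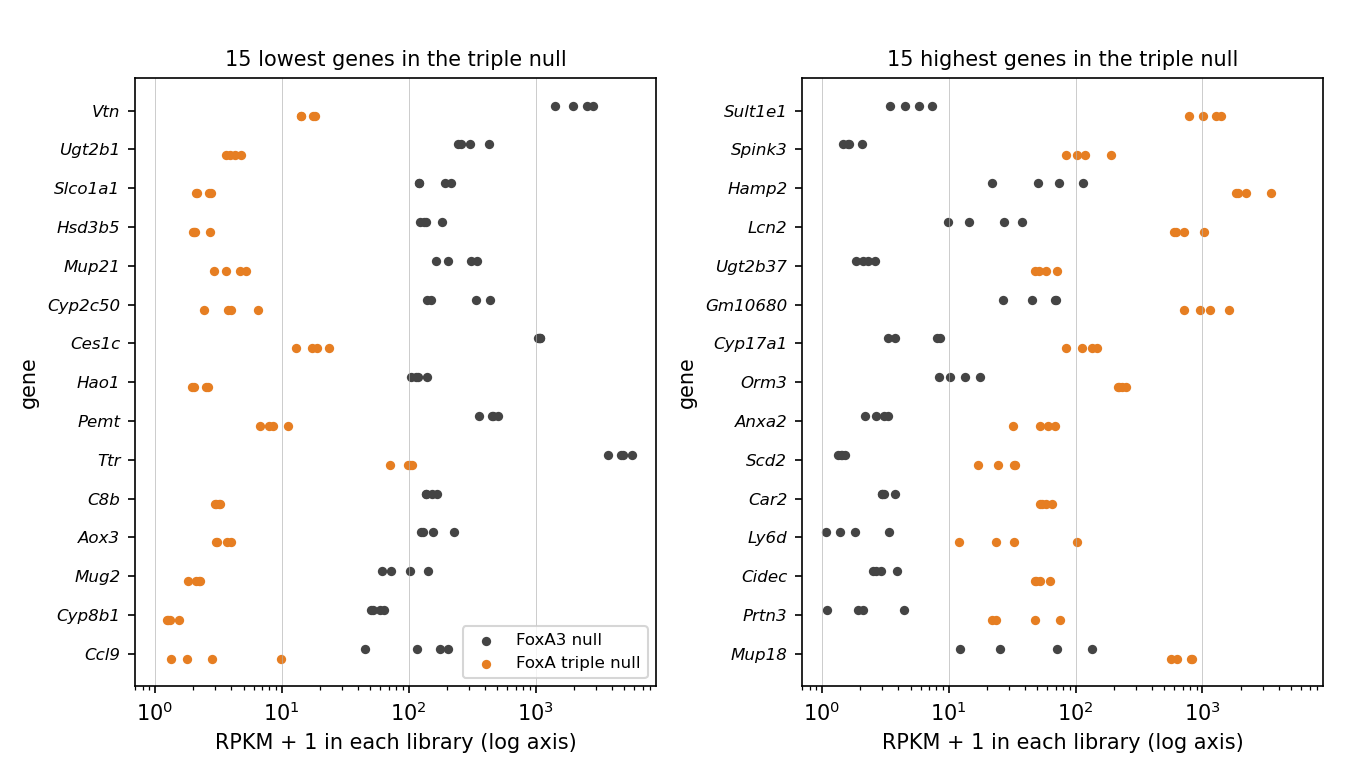
Every library's RPKM + 1 (log axis) for the 15 genes that fell furthest and the 15 that rose furthest. Dark points are the 4 FoxA3 null libraries and orange points the 4 triple null libraries. The groups do not overlap in any of the 30 genes, as the naming rule required. Ccl9, Mup18 and Ly6d have the largest SE of the difference.

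Genes were next grouped by what their products do. The lists were written with earlier results of these data known, so their counts describe them and are not independent evidence of a direction. The share of a list's tested genes that was called, either way, is to be read beside the 8.57% of all genes, 4.39% higher and 4.18% lower. Among secreted plasma proteins, 14 of 27 tested were called lower and 1 higher (55.6%), at a median difference of -1.15. Ambp, the precursor of alpha-1-microglobulin and bikunin, went from 1865, 2162, 2059.6 and 2294 RPKM to 78.1, 132, 156 and 124, a difference of -4.12. Itih2 and Itih1, the heavy chains that bind bikunin, fell by 3.97 and 3.36. Trf, transferrin, which carries iron in blood, went from 6496 ± 853 RPKM to 1279 ± 105 (n = 4 each). Alb itself fell by 1.20 (SE 0.19, adjusted p 0.0014), a call lost with no minimum RPKM. Rbp4, the partner of transthyretin, was not called, at -0.14. The alpha-1-antitrypsin genes parted, with Serpina1c at -3.03 and Serpina1a at -1.18, both called, and Serpina1b, Serpina1d and Serpina1e at 0.04, -0.02 and -0.06; these copies share most of their sequence. Serpina7, which encodes the thyroid-binding globulin whose promoter drove Cre, was the 1 gene of this list called higher, at 1.67 (adjusted p 0.019). Its RPKM was 14.5, 10.1, 11.6 and 35.7 in FoxA3 null, against 31.6, 99.6, 57.98 and 40.4 in the triple null, so the groups overlapped. Without FoxA3 null library 2 it was no longer called, at 1.46, and the list then held 0 genes called higher; without the pair low in mitochondrial transcripts it held 16 lower and 0 higher.

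Apolipoproteins went both ways, with 5 of 22 called lower, 3 higher (36.4%) and a median of -0.13. Apoa1, the main protein of high density lipoprotein, was 5366, 6933, 9209 and 7348 RPKM in FoxA3 null, against 222, 176, 187 and 171 in the triple null, a difference of -5.23 (SE 0.17, adjusted p 5.9e-08). Apoa5, which promotes breakdown of plasma triglyceride, fell by 3.88, and Apof, an inhibitor of lipid transfer, by 3.69. Lcat, which esterifies cholesterol in high density lipoprotein, fell by 1.40. Genes of the cluster that holds Apoa1 went both ways. Apoa5 lies in it and fell, whereas Apoa4 rose from 53.98, 64.3, 54.9 and 79.05 to 677, 508, 735 and 508 RPKM (3.24), and Apoc3, an inhibitor of lipoprotein lipase, from 3562, 5114, 7262 and 4599.6 to 17961, 17044, 14359 and 17032 (1.74). Apoc2, the activator of that lipase, rose by 2.94 (adjusted p 6.1e-07). Apob, Apoe, Apoa2 and Mttp, which loads lipid on apolipoprotein B, were not called (-0.41, -0.10, -0.17 and 0.00).

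Clotting and complement genes were called in 1 direction. Of 21 coagulation and fibrinolysis genes, 14 were called lower by limma and 0 higher (66.7%). Among the 14, 1 was included only through FoxA3 null. At an unadjusted p under 0.05 the limma counts were 16 lower and 0 higher. The median difference was -1.33, and 20 of the 21 were below 0. F11, clotting factor XI, was 34.3, 32.7, 26.8 and 29.1 RPKM in FoxA3 null, against 0.672, 0.885, 1.03 and 0.737 in the triple null (-4.11, SE 0.13, adjusted p 3.9e-08). Serpind1, heparin cofactor II, fell by 3.24, Plg, the precursor of plasmin, by 2.80, and Serpinf2, the inhibitor of plasmin, by 2.61. Brakes on clotting fell as well as factors that drive it, among them Serpinc1, antithrombin, by 1.33 and Proc, protein C, by 1.92. F2, prothrombin, fell by 1.35 and F10 by 1.06. F5, F9 and Pros1 were not called, at -0.23, -0.27 and -0.02. In complement, 10 of 22 were called lower and 0 higher (45.5%), at a median of -0.59; at an unadjusted p under 0.05 the limma counts were 15 and 1. C4bp, which slows the classical pathway, went from 378, 311, 191 and 267 to 6.21, 11.2, 13.4 and 5.50 RPKM (-4.87). Mbl2, a mannose-binding lectin, fell by 3.47, C6 by 3.33 and Hc, complement component 5, by 2.42. C8b belonged to a 3-chain complex whose other genes C8a and C8g were not called (0.29 and -0.33). C3 and C4b were not called (0.68 and 0.02).

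**Figure D3:**
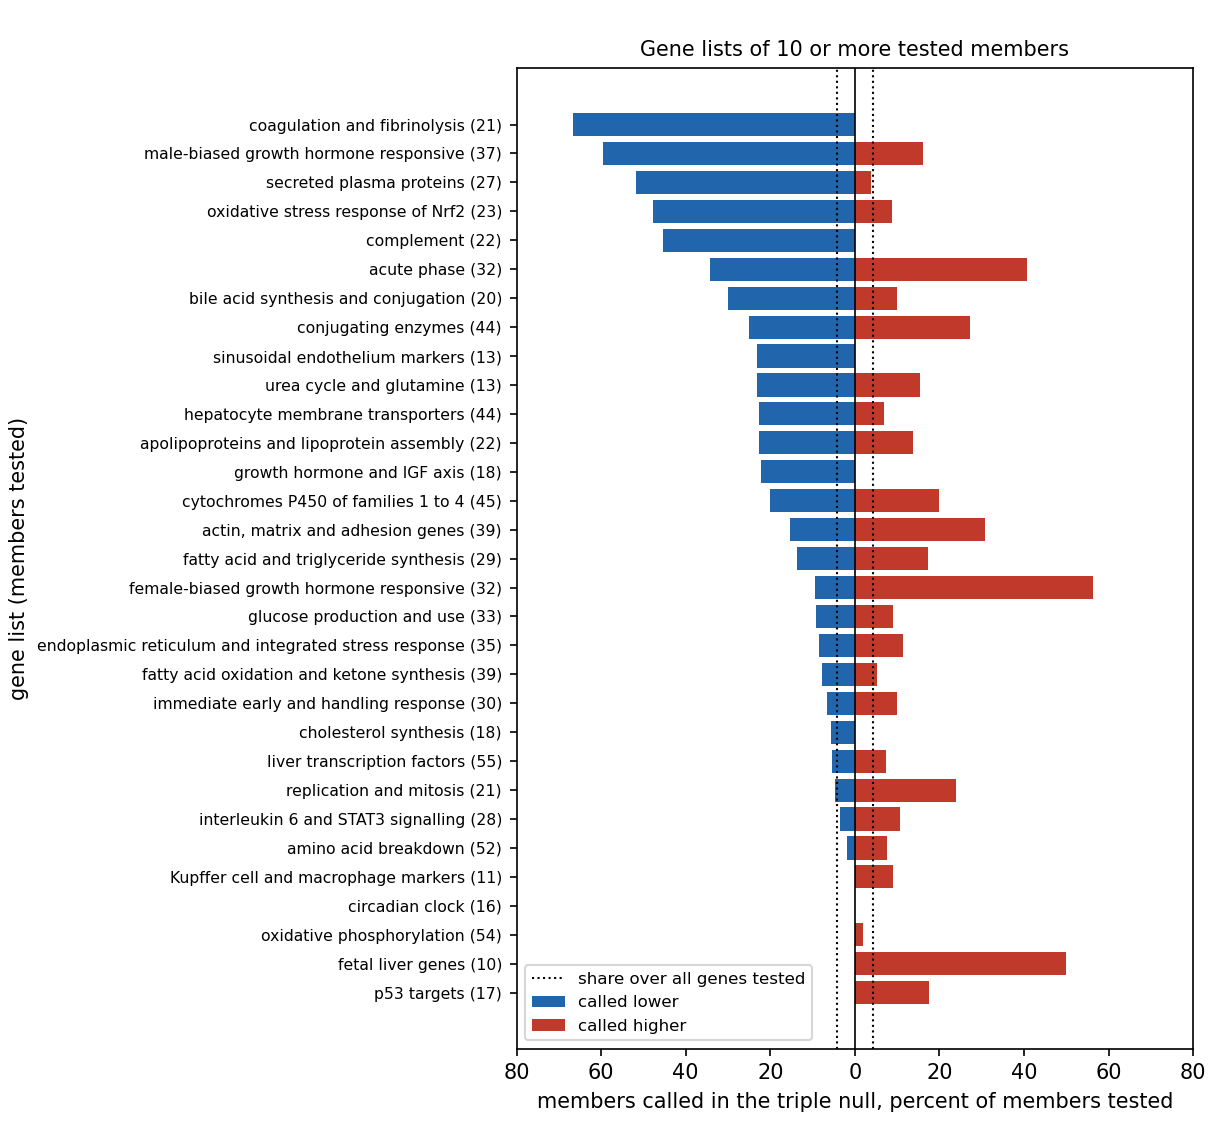
Share of tested members called lower (blue bars, to the left) and higher (red bars, to the right) in lists with at least 10 tested members, whose number stands in parentheses; both directions are percentages. Dotted lines mark the shares over all genes tested, 4.18% lower and 4.39% higher. Coagulation (66.7% called) and complement (45.5%) extend to the left only, and the female-biased list mostly to the right.

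Enzymes and transporters that handle drugs and hormones changed in both directions. Of 45 P450 genes of families 1 to 4, 9 were called higher and 9 lower (40%, beside 8.57% of all genes); 3 of the higher ones were included only through their triple null libraries. Members of 1 cluster went opposite ways. Cyp2c50 and Cyp2c54 went from 338, 437, 150.2 and 138 and 163, 195, 93.8 and 77.6 RPKM to 2.97, 1.45, 5.47 and 2.77 and 4.94, 1.47, 2.00 and 4.78. Cyp2c40 rose from 5.13, 2.92, 0.212 and 0.223 to 32.98, 25.4, 29.2 and 40.97 RPKM and Cyp2c69 from 0.504, 0.362, 0.264 and 0.324 to 18.3, 15.04, 5.52 and 20.1. Cyp2b10, a target of the receptor CAR (Nr1i3), rose by 2.71 while Nr1i3 itself was not called (0.32). Cyp3a11, the main drug-oxidising P450 of its family in mouse, fell by 1.09 (-0.89 and not called without triple null library 1), and Cyp1a2 and Cyp2e1 were not called (0.26 and 0.80). Many of these genes are close copies, which limits the reading of single members.

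Over the whole list of conjugating enzymes 12 of 44 were called higher and 11 lower (52.3%); 2 of the higher ones were included only through their triple null libraries and 1 of the lower ones only through FoxA3 null. Among tested genes with the symbol Sult, counted after their values were seen, 7 of 10 were called higher and 1 lower; 4 of the 7 were included only through their triple null libraries, so a call to lower was not open to them. Of 18 tested Ugt genes, the glucuronosyltransferases, 3 were called higher and 2 lower. Sult1a1, which sulfates phenols, rose from 92.7, 79.99, 116 and 122 to 663, 639, 888 and 622 RPKM, and Sult1d1 from 102, 87.7, 103 and 106 to 483, 727, 745 and 811. Sult1b1 fell by 1.90. Sult2a1, Sult2a2, Sult2a3 and Sult2a6, which sulfate bile acids and steroids, were under 0.1 RPKM in each FoxA3 null library and reached 1.49 ± 0.785, 6.68 ± 3.89, 1.76 ± 1.03 and 2.41 ± 1.58 in the triple null (n = 4); they are close copies. Gstm1, Gstm2, Gstm3, Gstm4 and Gstm6 of the mu class fell by 2.2, 2.69, 3.43, 1.18 and 1.19, and Gstp1 of the pi class by 2.42. Gstt1 and Gstt3 of the theta class rose by 1.80 and 3.18, the latter from 51.1, 48.1, 47.3 and 46.5 to 398, 389, 557 and 452 RPKM. Mgst1, a microsomal transferase, rose from 6749 ± 531 to 20904 ± 883 RPKM (n = 4 each).

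Several of the mu class genes also respond to Nrf2, the transcription factor that senses oxidants. In the list of Nrf2 response genes 11 of 23 were called lower and 2 higher (56.5%), at a median of -0.70. Gclc, the catalytic subunit of the first enzyme of glutathione synthesis, went from 180.5, 182, 147 and 137 to 28.9, 53.7, 31.5 and 36.5 RPKM (-2.10), and its modifier Gclm fell by 1.11. The members did not move as 1 block. Nqo1, a quinone reductase, rose by 1.28, and G6pdx, which makes NADPH, rose from 2.61, 2.61, 1.29 and 2.43 to 12.9, 11.2, 15.3 and 19.2 RPKM. Hmox1, Txnrd1 and Srxn1 were not called (-0.32, -0.47 and 0.51).

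Of 44 membrane transporters, 10 were called lower and 3 higher (29.5%, beside 8.57% of all genes). Of these, 2 of the lower ones were included only through FoxA3 null and 2 of the higher ones only through the triple null. Besides Slco1a1, the organic anion transporters Slc22a30 and Slc22a7 fell by 2.68 and 2.37. Slco2a1, which takes up prostaglandins, fell by 1.76, and Abcc3, which exports conjugates to blood, by 1.35. The bile salt carriers Slc10a1 and Abcb11 were not called (-0.85 and -0.01). Slc13a3, a dicarboxylate carrier, rose by 1.48. The other 2 higher calls were each lost without any 1 of several libraries. Slco1b2, an uptake transporter of bile acids and drugs, was at 1.05, and between 0.96 and 0.99 when FoxA3 null library 2 or 4 or triple null library 3 or 4 was left out, which ended the call. Abcb1b, a drug exporter, was at 1.09 and lost its call without FoxA3 null library 1 (0.97) or 2 (0.88) or triple null library 2 (0.97). Without FoxA3 null library 2 the list held 1 higher call.

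Metabolic pathways differed in how many of their genes were called. In bile acid synthesis 6 of 20 were called lower and 2 higher (40%, beside 8.57% of all genes); 1 of the lower ones was included only through FoxA3 null. Cyp7a1, which starts the classic route from cholesterol, was not called (0.57), whereas Cyp27a1 of the alternative route fell by 1.60 and Akr1c6, a hydroxysteroid dehydrogenase, by 2.43. Akr1d1, which reduces the steroid ring, rose by 1.85, and Acnat2, an acyl transferase, went from 1.11, 1.91, 2.90 and 5.65 to 27.4, 32.8, 23.5 and 35.99 RPKM. Baat and Slc27a5, which join bile acids to amino acids, were not called (0.08 and 0.22). Cholesterol synthesis held 1 call among 18 genes, Sc5d, at -1.18 (adjusted p 0.00069), with Sqle, which oxidises squalene, at -0.18; limma called 0 higher, with 0 higher and 7 lower at an unadjusted p under 0.05. The percentage called there, 5.56%, was below the 8.57% of all genes.

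Among 29 genes of fatty acid synthesis and storage, 5 were called higher and 4 lower (31.0% called, beside 8.57% of all genes), 2 of the higher ones included only through the triple null. Elovl3, an elongase of male mouse liver, went from 31.4, 48.4, 155 and 116 to 1.85, 1.45, 3.19 and 2.76 RPKM, and Elovl2, which elongates polyunsaturated chains, from 101, 76.05, 92.9 and 111 to 8.42, 11.7, 7.83 and 8.68. Elovl1 rose by 1.15. Cd36, a fatty acid receptor, rose from 6.10, 3.25, 0.951 and 5.06 to 28.4, 26.6, 49.01 and 26.7 RPKM, Mogat1, a monoacylglycerol acyltransferase, by 1.92, and Scd2 and Cidec as given above. Scd1, Fasn and Acly were not called (-0.57, 0.19 and -0.51). In fatty acid oxidation 3 of 39 were called lower and 2 higher (12.8%, near the 8.57% of all genes), and 2 of the lower ones were included only through FoxA3 null. Acot1, an acyl-CoA thioesterase, went from 18.1, 8.22, 12.9 and 21.8 to 0.213, 0.345, 0.713 and 0.481 RPKM, and Fgf21, a fasting hormone, from 2.73 ± 2.10 to 0.101 ± 0.0936 (n = 4). Vnn1, which releases pantothenate, rose by 2.38, and Pdk4, a brake on pyruvate oxidation, by 1.19. Acsm5 fell by 1.10, but was at -0.91 and not called without FoxA3 null library 1, and without triple null library 3 the lower count was 6. Of 54 nuclear genes of oxidative phosphorylation, 1 was called (Ndufb3, a subunit of complex I, 1.55), a share of 1.85% beside 8.57% of all genes; limma called 0 lower, and at an unadjusted p under 0.05 the counts were 11 higher and 1 lower.

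In the urea cycle and glutamine list 3 of 13 were called lower and 2 higher (38.5%, beside 8.57% of all genes). Cps1, the enzyme of entry to the cycle, fell by 2.16 and Asl by 1.27, while Otc and Ass1 were not called (-0.41 and -0.36). Oat, which makes glutamate semialdehyde from ornithine, rose from 329.6, 245, 370.3 and 541 to 1625, 2211, 3194 and 2954 RPKM, and Rhbg, an ammonia channel, from 2.69, 1.57, 2.52 and 4.09 to 17.6, 18.2, 43.7 and 17.8. Oat and Rhbg are genes of hepatocytes around the central vein; Glul, of the same zone, was not called, at 1.00, and the spread of zones between libraries was not measured. Amino acid breakdown held 4 higher and 1 lower call among 52 genes (9.62%, near the 8.57% of all genes). Csad, which makes a precursor of taurine, fell from 106, 109.8, 110.2 and 94.7 to 8.47, 13.9, 10.3 and 9.90 RPKM. Hpd, of tyrosine breakdown, rose from 2203 ± 545 to 6619 ± 423 (n = 4), and Bhmt and Prodh rose by 1.55 and 1.64.

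In glucose metabolism 3 of 33 were called higher and 3 lower (18.2%, beside 8.57% of all genes), and 1 of the higher ones was included only through the triple null. Fbp1, fructose bisphosphatase of gluconeogenesis, went from 649, 597, 549 and 598 to 113, 155, 183 and 137 RPKM (-2.04), and Pck1 and Pcx were not called (0.04 and -0.15). Pfkfb1, which makes a regulator of glycolysis, and Pkm2, a pyruvate kinase scarce in adult liver, rose by 1.22 and 1.20. Gapdh was listed at 15.9 ± 6.52 RPKM in FoxA3 null, against 3.44 ± 1.09 in the triple null (n = 4), low for this abundant mRNA, which has many processed copies in the genome. G6pc, glucose-6-phosphatase, was at -1.5 with overlap between groups, and its call was lost without any 1 of FoxA3 null libraries 2, 3 and 4 and triple null libraries 1, 2 and 3, at differences of -1.28 to -1.48.

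Genes that differ between the sexes in mouse liver were often called, 75.7% of the male-biased and 65.6% of the female-biased ones tested. Growth hormone is released in pulses in male mice and more evenly in females, and the pattern sets many of these genes through STAT5. Of 37 male-biased genes tested, 22 were called lower and 6 higher, at a median of -1.33. Of 32 female-biased genes, 18 were higher and 3 lower, at a median of 1.22. The filter set part of these directions: 8 of the 18 higher female-biased genes were included only through their triple null libraries, 6 of the 22 lower male-biased genes only through their FoxA3 null libraries, and 14 female-biased genes in the matrix were too low to test. Of the 3 lower female-biased genes, 1 was included only through FoxA3 null. Hsd3b5 was 136, 130.3, 183 and 122 RPKM in FoxA3 null, against 1.08, 1.05, 0.982 and 1.72 in the triple null. Mup20, a pheromone of males, went from 1189, 1038, 351 and 465 to 15.6, 33.3, 15.9 and 21.6 RPKM, Mup3 from 11688, 11649, 11349 and 8415 to 461, 547, 432 and 454, and Selenbp2 fell by 3.34. Alas2, listed in mouse liver as male-biased and also the heme synthesis enzyme of red cells, went from 41.7, 37.4, 44.7 and 31.5 to 1.24, 1.31, 0.715 and 0.902.

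On the female-biased side, Cyp17a1 went from 2.74, 2.30, 7.56 and 7.12 to 133, 82.3, 146 and 110.4 RPKM. Atp6v0d2, a proton pump subunit, rose from 0.294, 0.270, 0.241 and 0.190 to 8.43, 6.58, 13.5 and 9.99, and Slc22a26 from 0.0388, 0.102, 0.0417 and 0.0478 to 5.95, 4.32, 10.3 and 5.01. Fmo1, a flavin monooxygenase, rose from 141 ± 14.8 to 453 ± 32.2 (n = 4). The split by sex was not complete. Cyp4a12a, a male-biased P450, rose from 169, 85.5, 116 and 207 to 629, 439, 467 and 512 RPKM, Mup10 by 1.55 and Trim24 by 2.58, which stands in both lists. Cyp4a14, a female-biased P450, fell by 2.65, and Cyp2b9, Cyp2a4 and Slco1a4 were not called (-0.32, -0.45 and -0.94), although Cyp2a4 was called at -1.12 without FoxA3 null library 3 and Slco1a4 at -1.35 without FoxA3 null library 2. Of the Y-linked genes tested, Ddx3y was -0.06, Eif2s3y 0.18, Kdm5d -0.14 and Uty 0.14; limma called 0 of the 4, and 0 had an unadjusted p under 0.05.

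**Figure D4:**
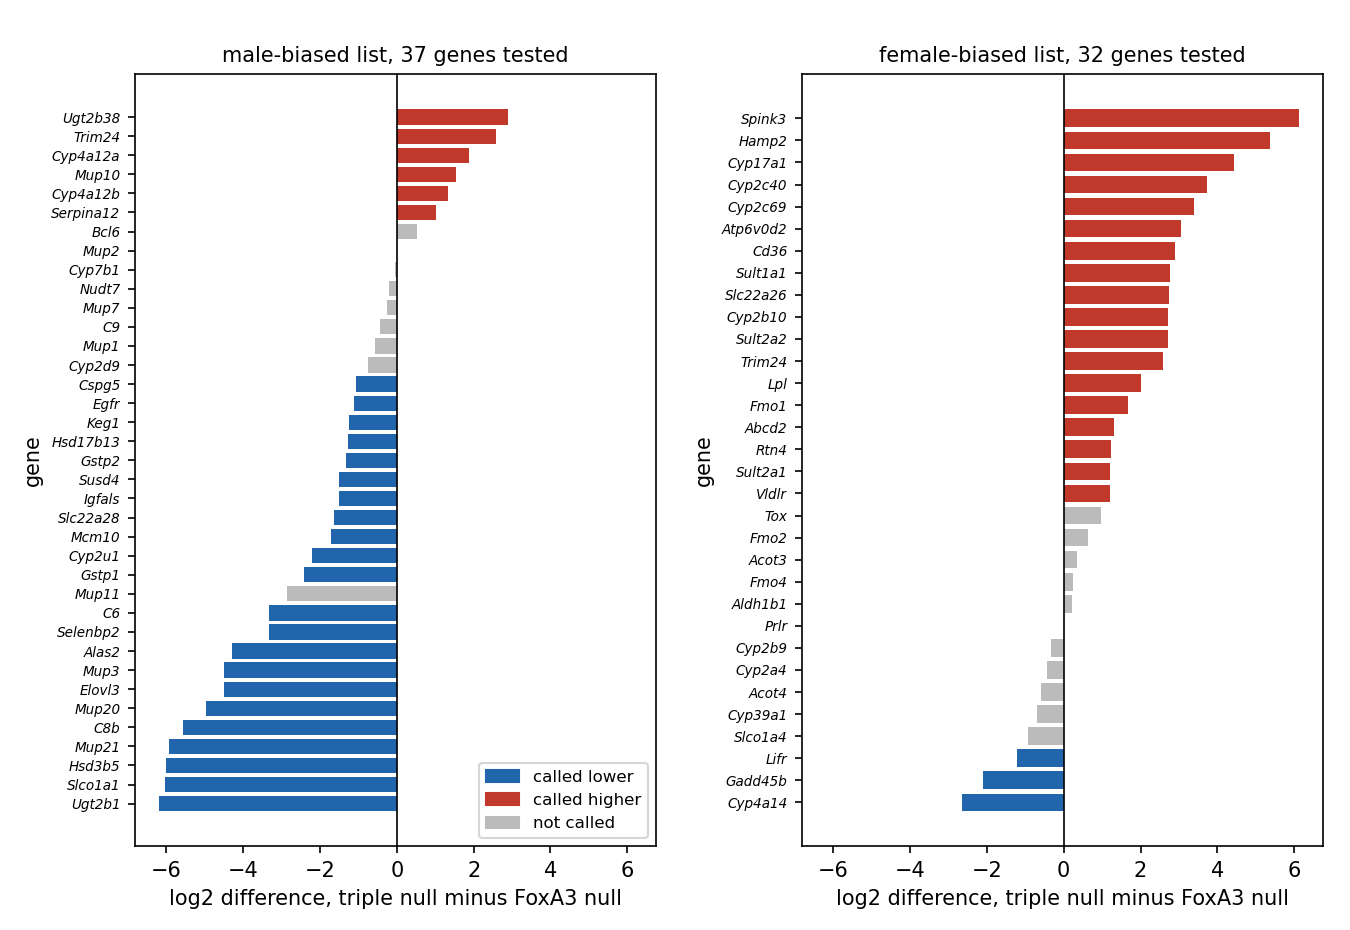
Difference of each tested member of the male-biased (37 genes) and female-biased (32 genes) lists, as triple null minus FoxA3 null on the log2(RPKM + 1) scale. Blue bars are called lower, red bars called higher and grey bars not called. In the male-biased list 22 bars are blue and 6 red, and in the female-biased list 3 are blue and 18 red.

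The growth hormone pathway itself held 4 lower calls among 18 genes and 0 higher by limma (22.2% called, beside 8.57% of all genes); at an unadjusted p under 0.05 the counts were 6 and 3. The receptor gene Ghr and Jak2, Stat5b and Socs2 downstream of it were not called (-0.12, 0.32, 0.45 and 0.14). Igf1, its main target, was at 0.84 (adjusted p 0.0011), under the minimum difference. Igfbp2, which binds insulin-like growth factors, went from 486, 672, 611 and 598 to 99.4, 38.5, 57.6 and 86.4 RPKM (-3.13). Igfals, which holds these factors in a ternary complex, fell by 1.51, the receptor gene Lifr by 1.22 and Egfr by 1.10. Without FoxA3 null library 3 there was 1 higher call.

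Regulators of the liver, the deleted Foxa1 and Foxa2 counted, were called in 12.7% of those tested, beside 8.57% of all genes. Among 55 transcription factors tested, 3 were lower, Foxa1 and Foxa2 included, and 4 higher, at a median of 0.02. Of the 3 lower ones, 1 was included only through FoxA3 null. Hnf4a, Cebpa, Prox1, Onecut1, Nr1h4 and Ppara were not called, at -0.13, 0.12, -0.18, -0.70, 0.04 and 0.38. Esr1, the receptor for the estrogens that Sult1e1 inactivates, was at 1.10 and at 0.94 without triple null library 1. Zbtb20 was at 2.13, and at 1.93 and not called without that same library, which left 2 higher calls. Nr5a2, a regulator of bile acid genes, was at -1.0 and lost its call without FoxA3 null library 1 (-0.80) or triple null library 1 (-0.93), 2 (-0.97) or 4 (-0.98). Hhex, a homeobox factor of the early liver that was looked at after its values were seen, went from 75.5, 52.98, 64.95 and 57.4 to 13.7, 25.9, 26.6 and 25.2 RPKM (-1.45). Of 16 clock genes, limma called 0 in either direction, with 1 higher and 2 lower at an unadjusted p under 0.05; without FoxA3 null library 3 or 4 or triple null library 1, 1 was called lower.

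Acute phase genes were called in both directions, with 13 of 32 higher, 11 lower (75.0%, beside 8.57% of all genes) and a median of 0.34. Among the 13 higher ones, 1 was included only through the triple null. The genes of serum amyloid A rose, Saa1 from 122, 219, 179 and 355 to 1326, 1870.2, 6248 and 2391 RPKM and Saa2 from 29.98, 54.7, 66.8 and 102 to 288, 422, 2325 and 572. Triple null library 3 was the highest of its group for both, and also for Mt1 and Mt2, the metallothioneins, at 883, 638, 3399 and 731 and 477, 382, 2594 and 357 RPKM against 172, 325, 176 and 497 and 51.6, 124, 46.2 and 229 in FoxA3 null. Mt1 was at 2.04, and at 1.83 and not called without FoxA3 null library 1. Without the pair of libraries low in mitochondrial transcripts Mt1 was at 1.28 and Mt2 at 1.87, both still called, after 2.81 for Mt2 with all 8; with no minimum RPKM neither was called. Orm2 rose by 2.48, Il1rn, which blocks interleukin 1, by 2.26, and Cd14, a receptor for bacterial lipopolysaccharide, by 2.44. Serpina3n, a protease inhibitor that usually rises in inflammation, went from 194, 192, 77.5 and 115 to 2.89, 2.60, 5.15 and 2.55, and Serpina10, which inhibits factor X, from 108, 125, 103 and 111 to 1.85, 1.99, 2.59 and 1.69. Hp, haptoglobin, which binds free hemoglobin, went from 1171, 2288, 2377 and 3779 to 152, 658, 539 and 244, and Hpx, which binds heme, fell by 2.29. Fga, a chain of fibrinogen, fell by 1.33, and Fgg was at -0.97, under the minimum difference, and was called at -1.06 without FoxA3 null library 1 and -1.15 without triple null library 3. Hamp and Crp were not called (0.81 and 0.14).

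Signalling upstream of that response was read from 28 interleukin 6 and STAT3 genes, of which 3 were called higher and 1 lower (14.3%, beside 8.57% of all genes). Stat3, Il6st and Socs3 were not called (-0.22, -0.51 and -0.99), but Socs3, a feedback inhibitor of the pathway, was called at -1.25 without FoxA3 null library 1 and -1.23 without triple null library 1. The 3 higher calls, Nfkbiz (1.01), Cxcl10 (1.03) and Pim1 (1.23), each lost the call without at least 1 library. Nfkbiz was at 0.91 without FoxA3 null library 1 and 0.97 without triple null library 2. Cxcl10 was at 0.90 to 0.98 without FoxA3 null library 2 or 4 or triple null library 2 or 4, and Pim1 at 1.06 to 1.28 without FoxA3 null library 1, 2 or 4 or triple null library 1 or 3. The higher count was 1 without FoxA3 null library 1 or 2 or triple null library 2, and the lower count 2 without FoxA3 null library 1 or 3 or triple null library 1, or without the pair low in mitochondrial transcripts.

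The lists of endoplasmic reticulum stress, p53 targets and immediate early genes were called in 16.7% to 20.0% of their tested genes, beside 8.57% of all genes. In the endoplasmic reticulum and integrated stress list 4 of 35 were higher and 3 lower. Of these, 2 of the higher ones were included only through the triple null and 2 of the lower ones only through FoxA3 null. Hspa5, Ddit3 and Atf4, which lead these responses, were not called (0.29, 0.84 and -0.03). Ern1, the sensor IRE1, fell by 1.46, and Nupr1, a stress-induced nuclear protein, rose by 1.37. Of 17 p53 targets, 3 were called higher and 0 lower by limma; at an unadjusted p under 0.05 the counts were 7 and 1. Cdkn1a, which arrests the cell cycle, went from 8.61, 5.88, 1.28 and 2.25 to 36.2, 59.8, 32.8 and 28.3 RPKM (3.04). The other 2, Ccng1 (1.30) and Sesn2 (1.02), rested on single libraries. Sesn2 was at 0.93 to 1.00 without FoxA3 null library 2 or 4 or triple null library 1 or 2, and Ccng1 at 1.01 to 1.43 without FoxA3 null library 3 or 4 or any 1 triple null library; in each case the call was lost. Only Cdkn1a was called without FoxA3 null library 4 or triple null library 1 or 2. Among 30 immediate early genes, which also respond to cell isolation, 3 were higher and 2 lower. Of these, 1 of the higher ones was included only through the triple null and 1 of the lower ones only through FoxA3 null. Fos, Jun, Egr1 and Dusp1 were not called (0.20, -0.42, 0.40 and 0.25). Gadd45a rose by 1.77 and Gadd45b fell by 2.09, both growth arrest genes. Gadd45g was at -2.39, and at -1.85 to -2.39 and not called without FoxA3 null library 3 or 4 or triple null library 1, 2 or 3; the lower count was then 1, except without triple null library 1.

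Structural genes of the cell surface and skeleton were called in 46.2% of those tested, 12 of 39 higher and 6 lower. Among the 12 higher ones, 2 were included only through the triple null. S100a10, the partner of annexin A2, rose from 68.3, 99.1, 163 and 152 to 569.9, 800.2, 634 and 857 RPKM, in the same libraries in which Anxa2 went from 1.68, 1.20, 2.07 and 2.33 to 31.1, 59.2, 51.1 and 67.3. Lgals1, a galectin, rose from 6.21, 9.64, 2.54 and 10.3 to 113, 103, 64.6 and 154, and the keratin gene Krt23 from 3.03, 0.783, 1.64 and 0.752 to 24.3, 24.8, 61.4 and 26.4. Krt8, a keratin of hepatocytes, rose by 1.18. Fn1, fibronectin, fell by 1.57, Ceacam1 by 1.23, and the gap junction gene Gjb2 by 1.16, while Gjb1, Actb and Vim were not called (-0.09, 0.41 and 0.03). Cdh1, E-cadherin, was at -1.14 with overlap, and at -0.94 to -1.12 and not called when any 1 library but FoxA3 null library 1 or triple null library 2 was left out.

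Fetal liver genes were mostly too low to test. Of 31 listed, 10 were tested and 5 called higher (Spink3, Scd2, Ly6d, Pkm2 and Mirg), of which the first 3 are among the 15 highest genes already described; 0 were called lower by limma, with 8 higher and 1 lower at an unadjusted p under 0.05. Afp, the albumin-like protein of the fetus, was not called, at 0.932 ± 0.175 RPKM in FoxA3 null, against 1.07 ± 0.160 in the triple null (n = 4). All 5 were included only through their triple null libraries, so the filter largely fixed their direction. There was 1 lower call without FoxA3 null library 1, or without the pair low in mitochondrial transcripts. In replication and mitosis 5 of 21 were higher and 1 lower (28.6%), but single libraries set these counts. The higher count was 3 without FoxA3 null library 1 or 3 or triple null library 1, 1 without FoxA3 null library 2 or triple null library 4, 0 without triple null library 2, 9 without triple null library 3 and 8 without the pair low in mitochondrial transcripts. Of the 5, 4 were included only through their triple null libraries, and the 1 lower gene only through FoxA3 null. The one lower gene, E2f8, was not called without triple null library 1 (-0.96) or 2 (-1.0); the lower count was 0 also without FoxA3 null library 2, 3 or 4. Cdk1, which drives entry to mitosis, was 3.50, 1.21, 1.83 and 4.09 RPKM in FoxA3 null, against 5.56, 18.1, 4.39 and 8.40 in the triple null, with overlap between groups, and its call was lost at 1.00 to 1.34 without FoxA3 null library 2 or 3 or triple null library 2 or 4.

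Markers of other liver cells were read in the same libraries, since hepatocyte preparations can hold them. In bulk RNA, fewer cells of a type and less RNA per cell cannot be told apart. Sinusoidal endothelium markers (18 genes) summed to 13.1 to 29.7 RPKM in the triple null and 45.8 to 70.6 in FoxA3 null. All 13 tested were below 0, at a median of -0.84. Of these, 3 were called lower (Egfl7, Clec4g and Eng, at -1.42, -1.29 and -1.16), a share of 23.1% beside 8.57% of all genes. By limma 0 were called higher, and at an unadjusted p under 0.05 the counts were 0 higher and 13 lower. Eng was at -0.95 and not called without triple null library 3, and the list held 5 or 6 lower calls without FoxA3 null library 4 or triple null library 1 or 2. Stellate cell and fibroblast markers (16 genes) summed to 15.1 to 59.9 against 54.1 to 82.3 RPKM, and 2 of 5 tested were called lower (Colec11 and Reln). Of these 2, 1 was included only through FoxA3 null. Kupffer cell markers (20 genes) summed to 40.03 to 79.4 against 34.2 to 43.5. Among 11 tested, 1 was called, Mpeg1, at 1.80, a share of 9.09%, near the 8.57% of all genes. Clec4f, Cd5l and C1qa were not called (-0.18, -0.19 and -0.14). Lymphocyte and neutrophil markers (18 genes, 15 of them under 1 RPKM in all 8 libraries) summed to 9.93 to 112.4 against 1.30 to 2.02, carried by S100a8, at 3.93, 91.3, 19.5 and 14.9 RPKM in the triple null, and S100a9, at 5.03, 17.3, 3.53 and 9.02. Cholangiocyte markers (16 genes) summed to 19.6 to 31.9 against 31.2 to 35.1, and limma called 0 of 4 tested, with 0 higher and 1 lower at an unadjusted p under 0.05. Pancreas and intestine genes (31, of which 27 stayed under 1 RPKM in all 8) summed to 143.9 to 239.8 against 67.4 to 138.9; the triple null sums are mostly Spink3, which was called higher, and the other 3 tested were below 0, with Cela1, an elastase, called lower (-1.75), and 2 were lower without FoxA3 null library 1. Of 4 erythroid genes tested, Hba-a1, Hba-a2 and Hbb-b1 were higher (1.79, 1.33 and 1.50), and Alas2 lower as given above; with no minimum RPKM Hba-a2 and Hbb-b1 were not called, and 2 of the 3 higher ones were included only through their triple null libraries. Alas2 was included only through its FoxA3 null libraries. The shares called were 50.0% of the 4 pancreas and intestine genes tested and 100% of the 4 erythroid genes, beside 8.57% of all genes. The part of other cells in the acute phase, matrix and endothelial results was not tested.

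Symbol families were counted after their values were seen, over 156 families with at least 8 tested coding genes. The families with the highest shares called after Sult were Akr, Ces and Hist (63.6%, 58.3% and 54.5%, beside 8.57% of all genes). Of 11 Akr genes, aldo-keto reductases that act on steroids and other carbonyls, 4 were lower and 3 higher. Among the 3 higher ones, 1 was included only through the triple null. Among carboxylesterases, 7 of 12 Ces genes were called lower and 0 higher by limma; at an unadjusted p under 0.05 the counts were 8 and 1. These enzymes break down esters, drugs and stored lipid. Ces3a went from 879, 796, 874 and 759 to 103, 72.8, 96.3 and 107 RPKM, Ces1g from 84.6, 72.01, 21.8 and 41.8 to 0.692, 0.542, 0.985 and 0.877, Ces1d from 465, 367, 279 and 283 to 85.6, 57.5, 94.4 and 63.5, and Ces1b and Ces1e fell by 3.65 and 1.21. Major urinary proteins went both ways, with 3 of 19 Mup genes lower (Mup3, Mup20 and Mup21) and 7 higher, among them Mup16, Mup17 and Mup18 (2.19, 2.21 and 4.07). Histone genes with Hist symbols held 6 of 11 higher, Hist1h4h among them (1.64); 3 of the 6 were included only through their triple null libraries. Other secreted or metabolic genes of high abundance outside the lists, also named after seeing their values, include Sepp1, which carries selenium, at 3252, 3172, 2220.3 and 3051 and 362, 448, 702 and 436 RPKM, and Uox, urate oxidase, at 2319.5, 1509.5, 588 and 939.8 and 127, 149, 412 and 136. Asgr2, a chain of the asialoglycoprotein receptor, fell by 2.55. Lect2, a secreted hepatocyte protein, rose from 89.6, 89.4, 158 and 129 to 1339.8, 1040.1, 1202 and 1491 RPKM, and Nnmt, which methylates nicotinamide, from 84.3, 119, 145 and 129 to 692, 643, 995 and 802.

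A second pair of groups shows the FoxA1 and FoxA2 deletion with FoxA3 present. FoxA1/A2 lox libraries (3) have no deletion, and in FoxA1/A2 Cre alfp libraries (4) Cre, labelled alfp, deleted both genes. Foxa3 was 24.96 ± 5.39 (SD, n = 3) RPKM in lox and 31.1 ± 2.85 (SD, n = 4) in Cre alfp. The targeted genes did not end at the same level in both pairs: Foxa1 was 6.72 ± 1.81 RPKM in lox and 1.24 ± 0.10 in Cre alfp, against 3.28 ± 0.283 in the triple null. Foxa2 was 12.5 ± 6.26 and 1.09 ± 0.127, against 0.366 ± 0.103 in the triple null. In Cre alfp against lox 274 of 11500 genes were called (2.38%), and the difference of the 2 deletion effects, an interaction term in a fit of all 15 hepatocyte libraries, was called for 784 of 11500 (6.82%), 377 higher and 407 lower. FoxA3 status, the Cre line and whatever else parts the libraries cannot be told apart in this term: 1277 of the 11500 genes did not overlap between the 8 libraries without FoxA3 and the 7 with it, and 11 genes were listed at 0 in all 8 and above 1 RPKM in all 7. The term compares differences within each side, not levels across them.

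Of the 15 genes that fell furthest, 12 had a called interaction and 5 a called difference in Cre alfp against lox. The 15 genes each way were chosen by their difference without FoxA3, which is part of this term, and that favours a called interaction. Vtn fell by 7.05 without FoxA3 and was at -0.24 with it (interaction -6.81, SE 0.26, adjusted p 6.6e-10). Ttr was at 0.20 with FoxA3 present (interaction -5.85), Ces1c at -0.02 (-5.89) and Pemt at -0.18 (-5.52). Of the listed genes given above, Apoa1 was at -0.90 with FoxA3 present (interaction -4.33) and F11 at -1.32 (-2.79). Of the 22 male-biased genes called lower without FoxA3, 13 were called lower with FoxA3 present too, and 9 had a called interaction. Of the 18 female-biased genes called higher, 12 were called higher there too, and 8 had a called interaction. Ugt2b1 and Slco1a1 were among the male-biased genes with one, at -0.50 and -0.69 with FoxA3 present. Hsd3b5 was at -5.91 in Cre alfp against lox (interaction -0.11, adjusted p 0.9), Mup21 at -5.13, Elovl3 at -4.07 and Mup20 at -3.53, and their interactions were not called; a p over the threshold does not show that the effects were equal.

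Of the 15 that rose furthest, 12 had a called interaction and 7 were called in Cre alfp against lox. Sult1e1 rose by 3.76 with FoxA3 present and by 7.75 without it (interaction 4.00, SE 0.51, adjusted p 0.00015). Its mean was 0.140 RPKM in lox and 16.3 in Cre alfp. Without FoxA3 it was 4.29 RPKM before the deletion and 1123 after it. Adding 1 before the log shrinks mostly the change that starts from the low lox level. The interaction of Sult1e1 therefore overstates how far the fold changes differ. Spink3 was at 0.72 and Lcn2 at 0.73 with FoxA3 present (interactions 5.41 and 4.47). Saa1 was at -1.16 there, which was not called (adjusted p 0.37), with an interaction of 4.76 (adjusted p 0.0027). Hamp2, Scd2 and Mup18 rose after either deletion, by 4.76, 4.03 and 3.53 with FoxA3 present, and had no called interaction (0.60, 0.17 and 0.54). Apoa4 rose by 2.90 with FoxA3 and 3.24 without it (interaction 0.34, not called), unlike its neighbour Apoa1.

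**Figure D5:**
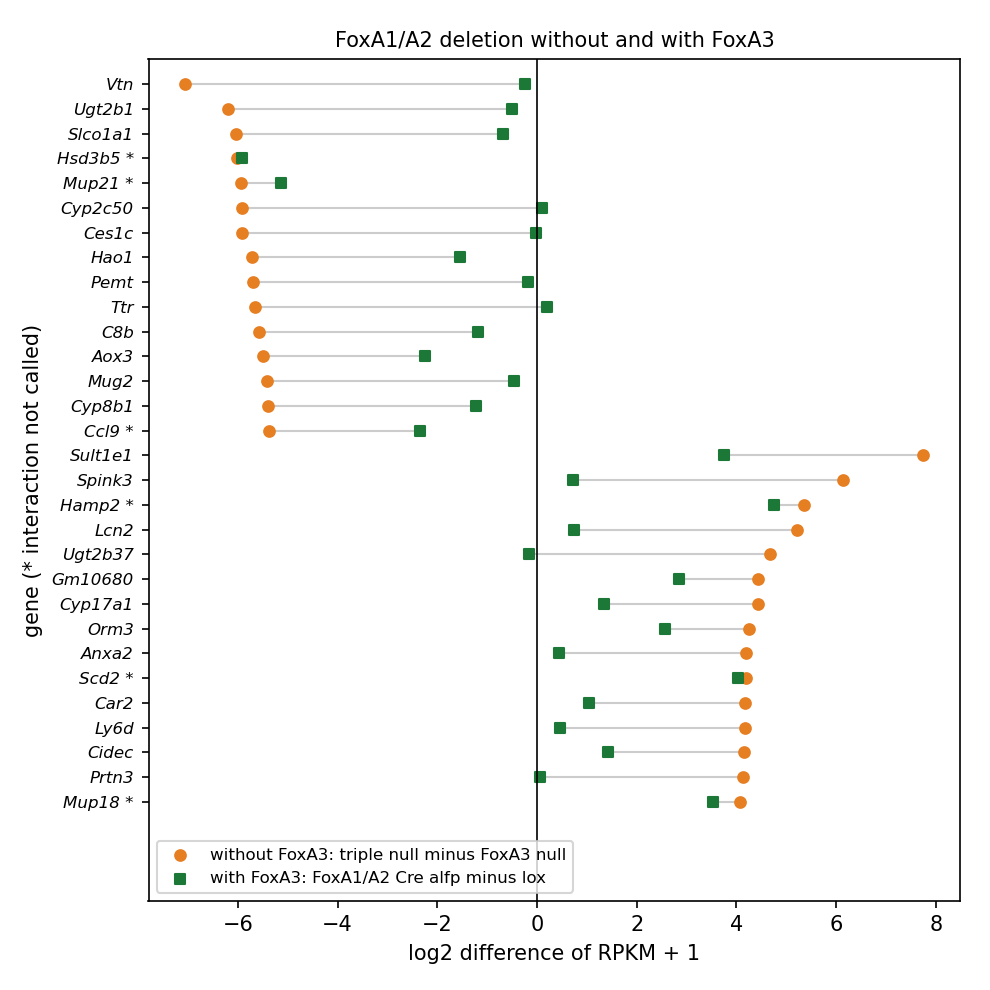
For the 30 genes that moved furthest, the effect of the FoxA1/A2 deletion without FoxA3 (orange circles) and with FoxA3 (green squares), as log2 differences of RPKM + 1, joined by a line; an asterisk marks the 6 genes without a called interaction. The green square of Vtn lies at -0.24 while its circle is at -7.05, and for Hsd3b5, Hamp2 and Scd2 the circle and square lie close together.

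The authors' deposited table of this comparison was set beside these values. It lists log2 fold changes and adjusted p-values for 9775 of the genes tested here. With the same thresholds the authors' deposited table calls 1308 genes, 570 higher and 738 lower. Of the 835 genes called here that have a row in the authors' deposited table, 772 are called in both, all in the same direction, which is 92.5% of the 835 and 63.6% of the 1213 genes called in the authors' deposited table that were tested here. For Vtn the authors' deposited table gives -7.23, for Ttr -5.71, for Sult1e1 7.97 and for Spink3 7.32. For Foxa1 the authors' deposited table gives -0.60, a smaller loss than the -1.13 found here. Another 96 genes called here have no row in it.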

How the data were processed

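RNA-seq libraries of isolated mouse hepatocytes were compared, 4 from FoxA triple null and 4 from FoxA3 null mice, with a second pair of groups, 4 libraries labelled FoxA1/A2 Cre alfp and the 3 of their lox controls. Expression was read from a matrix that the authors deposited as RPKM, 1 value per gene symbol and library. The submitters' processing notes name SAMtools, Cufflinks 2.2.1, DESeq2 and the build mm9 with no role or order; the aligner, annotation and strand setting are not given in the sources used here. The authors' deposited table of the comparison holds log2 fold changes, their standard errors and p-values with adjusted p-values, under column headers in the style of DESeq2; its model and libraries are not stated. RPKM keeps no read count, so the depth of each library is known only relative to the others and no counting interval is given. Of the values above 0, 2.816% were under 1e-06, so they are not plain counts over length and depth. In the matrix 25 symbols had been turned into dates, 13 of them among the genes tested. The 6 columns of HNF4a libraries and 9 of the 30 columns, which match no sample here, were not used.

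From these values log2(RPKM + 1) was computed and fitted with limma 3.58.1 (lmFit, eBayes with trend, two-sided) in R 4.3.3, over genes at 1 RPKM or more in at least 3 of the 8 libraries. P-values were adjusted by Benjamini and Hochberg over all 10868 genes, and adjusted p in the text comes from this fit unless another is named. Adding 1 understates the change of low genes. The interaction came from 1 fit of 15 libraries and 11500 genes. The fit was tested on simulated data. The markers, the 37 lists and the rules were chosen with earlier results of these data known. Genes were named by rule: the 15 furthest each way with a mean of at least 5 RPKM in the higher group and no overlap, and up to 4 called members each way of each list. A few genes are not reported here by name, and stay in the counts. Genes said to be not called, and further called genes, were added after their values were seen. Alternatives changed the pseudocount, the minimum RPKM, the scaling, the minimum difference, the trend, the libraries fitted and the replicate block, and left out each library in turn. Promoter windows came from RefSeq on GRCm38.p6, a different build from that of the matrix, and were joined by gene name only.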

Additional observations from a re-analysis of the deposited data

Results flagged for a closer look

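Within a group of 4 libraries, a value was marked when its gap to the nearest other value took more of the group's whole range than Dixon's critical value for 4 values allows. This held for 31 of 546 sets of 4 values, from the genes of the text with a mean of at least 1 RPKM, which is 5.68%; chance marks about 1 set in 20. Triple null library 3 held 12 of them, which is more than any other library. It was the highest of its group for Cd36 at 49.01 RPKM (28.4), Cebpa at 361 RPKM (249), Krt23 at 61.4 RPKM (26.4), Mt1 at 3399 RPKM (883), Mt2 at 2594 RPKM (477) and Onecut1 at 5.04 RPKM (2.53), with the nearest other library in parentheses. The same held for Pros1 at 25.2 RPKM (14.2), Rhbg at 43.7 RPKM (18.2), Saa2 at 2325 RPKM (572), Serpina3n at 5.15 RPKM (2.89), Sult1a1 at 888 RPKM (663) and Uox at 412 RPKM (149). Triple null library 1 was the lowest for Baat at 129.8 RPKM (169) and Hhex at 13.7 RPKM (25.2). Triple null library 2 was the highest for Gstm1 at 472 RPKM (261). Triple null library 4 was the highest for Cyp2b10 at 62.5 RPKM (23.2) and Hsd3b5 at 1.72 RPKM (1.08). FoxA3 null library 1 was the highest for Ddx3y at 19.2 RPKM (15.7), Il6st at 14.9 RPKM (6.98) and Nr5a2 at 13.8 RPKM (7.78). FoxA3 null library 2 was the highest for Esr1 at 1.71 RPKM (1.06). FoxA3 null library 3 was the highest for Ddit3 at 11.7 RPKM (7.58), Foxa2 at 20.6 RPKM (11.8), Hpd at 3018 RPKM (1975) and Selenbp2 at 20.7 RPKM (10.4). FoxA3 null library 3 was the lowest for Abcc3 at 97.6 RPKM (135) and G6pdx at 1.29 RPKM (2.43). FoxA3 null library 4 was the highest for Car2 at 2.75 RPKM (2.09) and Gstm2 at 33.3 RPKM (17.8). FoxA3 null library 4 was the lowest for Mup3 at 8415 RPKM (11349) and Vim at 0.994 RPKM (2.46).

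For 27 genes whose interaction is given the effect of the FoxA1 and FoxA2 deletion differed between FoxA3-null hepatocytes and those with FoxA3, by limma's interaction term at an adjusted p under 0.05 and a size of at least 1. In 14 the effect was more negative without FoxA3. The interactions were -6.81 for Vtn, -6.01 for Cyp2c50, -5.89 for Ces1c, -5.85 for Ttr, -5.69 for Ugt2b1, -5.52 for Pemt and -5.35 for Slco1a1. Further values were -4.96 for Mug2, -4.39 for C8b, -4.33 for Apoa1, -4.17 for Hao1, -4.16 for Cyp8b1, -3.26 for Aox3 and -2.79 for F11. In the other 13 the effect was more positive without FoxA3, at 5.41 for Spink3, 4.84 for Ugt2b37, 4.76 for Saa1, 4.47 for Lcn2, 4.07 for Prtn3, 4.00 for Sult1e1 and 3.76 for Anxa2. Further values were 3.70 for Ly6d, 3.12 for Car2, 3.07 for Cyp17a1, 2.74 for Cidec, 1.68 for Orm3 and 1.58 for Gm10680. All but Apoa1, F11 and Saa1 were chosen for a large difference without FoxA3. That difference is part of the interaction term, which favours a called interaction. Apoa1, F11 and Saa1 were picked from called members of the lists. The count of 27 is therefore no test of how often the effects differ. The value for Sult1e1 is also enlarged by the 1 added before the log. The groups with FoxA3 rest on another Cre, so FoxA3 status and the Cre line cannot be told apart in these values.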

How the results depend on the processing

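Of the 293 genes given with a difference, 260 could be fitted under every alternative, and 216 of these kept their call, or its absence, in each; no gene changed sign while called. With a pseudocount of 5 in place of 1 the count of called genes was 508 (245 higher, 263 lower) and that of the interaction 441 (210 and 231), since a larger constant shrinks the differences of low genes; with 0.1 they were 1273 and 975. The minimum difference moved the totals most. Without it 2771 genes passed (1639 higher, 1132 lower), and 1658 in the interaction (949 and 709). Over libraries left out 1 at a time the count ran from 873 without FoxA3 null library 1 to 1037 without FoxA3 null library 3, with 442 to 542 higher and 403 to 504 lower. The interaction ran from 634 without FoxA1/A2 lox library 1 to 885 without triple null library 3, with 304 to 420 higher and 330 to 475 lower. A minimum of 5 RPKM gave 735 calls and no minimum 795, with fewer and more genes tested. Quantile normalization (437 higher, 489 lower) and median scaling (432 and 489) lowered the median of all genes from 0.052 to 0.021 and 0.02. Among genes named in the text, calls were lost with no minimum RPKM for Abcb1b, Alb, Ccng1, Cdh1, Cdk1, Eng, G6pc, Gadd45g, Hba-a2, Hbb-b1, Mt1, Mt2, Mup10, Mup17, Pim1, Serpina7, Zbtb20 and mt-Nd1, after quantile normalization for Ccng1, Nfkbiz and mt-Nd1, and after median scaling for Cxcl10, G6pc, Nfkbiz and Sesn2; the cause was not tested. A pseudocount of 5 ended the calls of 39 of the 293 genes. Among them were Foxa1 (-0.69), Egfl7 (-0.86), Clec4g (-0.78), Eng (-0.64), Colec11, Reln, Esr1, Ern1, Nqo1, Fgf21, Mogat1, Pdk4, Pkm2 and Slc13a3. The fit without trend gave 931 calls and that of 15 libraries 933. Without FoxA3 null library 1 and triple null library 3, an alternative chosen after seeing the data, 911 genes were called (450 higher, 461 lower), and 786 in the interaction.

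The replicate numbers gave no sign of pairing. Same-numbered FoxA3 null and triple null libraries deviated from their group means with correlations of -0.136, -0.044, -0.388 and 0.030, and no number correlated best with itself. With the replicate number as a block 876 genes were called (449 higher, 427 lower) and 772 in the interaction (376 and 396). Abcb1b, Ccng1, Cdk1, G6pc, Gadd45g, Hba-a2, Mt1, Mt2, Nr5a2, Serpina7, Zbtb20 and mt-Nd1 were then not called. Because RPKM carries no read counts, how far depth limits the low genes is unknown.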

Other observations

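Some genes varied widely between libraries of 1 group. Among genes with a mean of at least 5 RPKM, the 5 with the largest spread in the triple null were Cyp2c39, Rps18, Rps2, Fgfr4 and S100a8. Cyp2c39, a P450 with close copies, was 62.6, 2.91, 239 and 3.59 RPKM in triple null libraries 1 to 4. Fgfr4, the liver receptor for the bile acid signal FGF15, was 5.79, 12.5, 86.5 and 152.8 RPKM there, so libraries 3 and 4 stood above libraries 1 and 2. Rps18 and Rps2, ribosomal protein genes with many processed copies in the genome, were 141, 7.32, 156 and 4.46 and 101, 5.65, 110.2 and 5.40 RPKM, high in libraries 1 and 3 and low in libraries 2 and 4.

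In FoxA3 null the 5 were Mup11, Mup14, Larp1b, Rpl29 and Rps18. Mup11 was 499, 956, 3.60 and 2.19 RPKM and Mup14 566.5, 1051, 6.57 and 5.95, both high in libraries 1 and 2 and low in 3 and 4; these genes are near-identical copies. Larp1b was 1.07, 61.7, 73.1 and 59.8 RPKM, low in library 1 alone, and Rpl29 was 57.0, 1.08, 37.5 and 65.4, low in library 2 alone. Rps18 was 247, 328, 11.9 and 174.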
